A study of Mus musculus with 6 samples.

Results

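The genes examined were Nlrp5, Ooep, Tle6, Khdc3 and Padi6, which encode the proteins of the subcortical maternal complex and its close partner PADI6. They were chosen by name as the rows with an Ensembl mouse identifier, which gave 5 of the 60193 genes listed, and all 5 were among the 18818 genes with a mean of at least 1 FPKM that entered the test. FPKM is the number of fragments on a gene divided by transcript length and by library size, so levels can be set side by side between genes. The study compared metaphase II (MII) oocytes of ICR mice aged 42 to 45 weeks that had matured in vitro (IVM) or in vivo (IVO), with 3 samples in each group. Every sample was a pool of 20 oocytes from 3 mice, and all mice had received pregnant mare's serum gonadotropin. The IVM oocytes were taken from the ovary at the germinal vesicle stage, stripped of cumulus cells and cultured in M16 medium for 12 h. The IVO oocytes came from mice that also received human chorionic gonadotropin, were collected from the oviduct 14 h later and were freed of cumulus cells with hyaluronidase. Stripping, culture, hormone treatment and time thus differ together between the groups and cannot be told apart.

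The subcortical maternal complex is a protein assembly that lies beneath the plasma membrane of the growing and mature oocyte and is inherited by the embryo. NLRP5 (also known as MATER), OOEP (FLOPED), TLE6 and KHDC3 (FILIA) bind one another in it, and PADI6 is required for the cytoplasmic lattices, fibrous structures that store proteins and ribosomal components in the oocyte. The genes are classical maternal-effect genes: the oocyte transcribes them during growth, the fully grown oocyte is transcriptionally silent, and embryos of mothers that lack one of them are impaired, with an arrest at early cleavage for most of the genes and with delay and aneuploidy for Khdc3. Only the RNA was measured here, and the proteins are long-lived.

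During maturation, stored RNAs gain or lose poly(A) tail through elements near their 3′ end, so the annotated 3′ ends of the members were read first. In the last 150 bases of the 3′ UTR (or the whole UTR where it was shorter), Nlrp5, Tle6, Khdc3 and Padi6 each held 1 canonical polyadenylation signal, AATAAA, which starts 24, 21, 18 and 24 bases from the transcript end. Each is shown 5′ to 3′ in GRCm39 with the signal in capitals. Below the members stand their partners Zbed3 and Nlrp4f with a cytoplasmic polyadenylation element in capitals, to show what such an element looks like in an oocyte RNA.
Nlrp5, chr7:23141315-23141338, plus strand: caagaatgaAATAAAcacagcatt
Tle6, chr10:81426744-81426767, minus strand: gttgcgtgtAATAAAacaattgaa
Khdc3, chr9:73011694-73011717, plus strand: aagtattctAATAAAaaaaaaatt
Padi6, chr4:140454675-140454698, minus strand: catagagccAATAAAgcatggtat
Zbed3, chr13:95474316-95474340, plus strand: cttttttttTTTTAATaaactttta
Nlrp4f, chr13:65324945-65324968, minus strand: tgttttgtgTTTTATattaaagaa

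Motifs were searched on the sense strand only. Ooep held neither AATAAA nor its variant ATTAAA in its last 150 bases, and at least 1 of these was found in 79.2% of 20480 protein-coding genes. The cytoplasmic polyadenylation elements TTTTAT and TTTTAAT were in the window of none of the 5 members and in that of 21.6% of the protein-coding genes, and the Pumilio motif TGTANATA was in none of the members and in 5.1% of the genes. In Zbed3 the element TTTTAAT overlaps an AATAAA. The 3′ UTR was 109 bases in Nlrp5, 131 in Tle6, 221 in Padi6 and 246 in Khdc3. That of Ooep was 1446 bases, the longest of the 5, on a transcript of 2138 bases that encodes only 164 residues. These matches describe the annotated sequence and were not measured in the libraries.

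The depth of the libraries, read from the steps between low FPKM values, came to 16300000 to 19500000 fragments for IVM and 17800000 to 18100000 for IVO. The inferred mean fragment length was 194 to 212 bases in IVM and 248 to 254 bases in IVO samples, so it differed between the groups. Its part in the differences below was not tested, although they were also computed without the trend of each library with gene length. All 10 oocyte markers had a mean of at least 1 FPKM, and their summed level was 21325 to 27222 FPKM in IVM and 21501 to 24201 FPKM in IVO samples. Oosp1 and Dppa3 make up most of that sum. Of the 10 markers, 5 (Bmp15, Mos, Zp1, Zp2 and Zp3) had every IVO value under every IVM value, which held for 32.6% of all tested genes, and none had every IVO value above. Of 15 cumulus and granulosa markers, 2 (Cyp19a1 and Fshr) reached a mean of 1 FPKM, with Amh listed at 0 in all 6 samples. The summed level of the 15 was 24.2 to 33.9 FPKM in IVM and 30.8 to 36.5 FPKM in IVO samples, and that of the 13 without Cyp19a1 and Fshr was 0.85 to 1.43 and 1.81 to 2.55 FPKM. At these low levels 4 cumulus markers were higher in every IVO than in every IVM sample: Gja1 (0.02 to 0.05 FPKM in IVM and 0.24 to 0.86 in IVO), Tnfaip6 (0 to 0.14 and 0.34 to 0.49), Has2 (0.04 to 0.14 and 0.17 to 0.37) and Ptx3 (0 to 0.03 and 0.07 to 0.17). Every IVO value lay above every IVM value in 1811 of the 18818 tested genes, which do not include these 4 genes. Cyp19a1 and Fshr overlapped between the groups. So did Inha, at 0.16 to 0.86 FPKM in IVM and 0.09 to 0.41 FPKM in IVO. Of the 15 markers 0 were lower in every IVO sample. The part of the cumulus markers in the differences was not tested. Of 5 oviduct markers only Epcam reached a mean of 1 FPKM (sums of 2.93 to 3.16 and 3.26 to 5.71 FPKM, with Pax8 at 0). Of 4 blood markers only Cd68 did, at 1.32 to 1.73 FPKM in IVM and 1.87 to 2.29 FPKM in IVO. The 4 blood markers summed to 1.34 to 1.89 FPKM in IVM and 1.88 to 5.94 FPKM in IVO. Hbb-bs was at 0 in IVM and at 0, 2.33 and 2.04 FPKM in IVO. Hba-a1 was at 0, 0 and 0.15 FPKM in IVM and 0, 0.96 and 1.45 FPKM in IVO. Ptprc overlapped between the groups, and the part of the blood markers in the differences was not tested.

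The FPKM of Khdc3, Tle6, Nlrp5 and Padi6 was lower in oocytes matured in vivo than in those matured in vitro. The means differed by 14.5-, 6.03-, 3.92- and 2.63-fold, and each gene was a DEG. DEGs had a log2 fold change (log2FC) of at least 1 in size and an adjusted p under 0.05 in limma on log2(FPKM + 1). Ooep was the exception, with overlapping groups and a difference that did not pass the test. The 4 called members are to be read against a strong shift in these data. Of all tested genes, 17.9% were DEGs lower in IVO, 0.606% were DEGs higher in IVO, and 32.6% had every IVO value under every IVM value, as these 4 members did. Among the tested Ensembl genes 14.6% were DEGs lower in IVO. The median log2FC was -0.30 over all tested genes and -1.99 over the 5 members. FPKM is relative to the library and does not give the amount of RNA per oocyte. The cDNA was primed on the poly(A) tail, so less RNA and a shorter tail cannot be told apart. In pools, a lower level in every oocyte and the loss of the RNA from some oocytes cannot be told apart either.

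**Figure D1:**
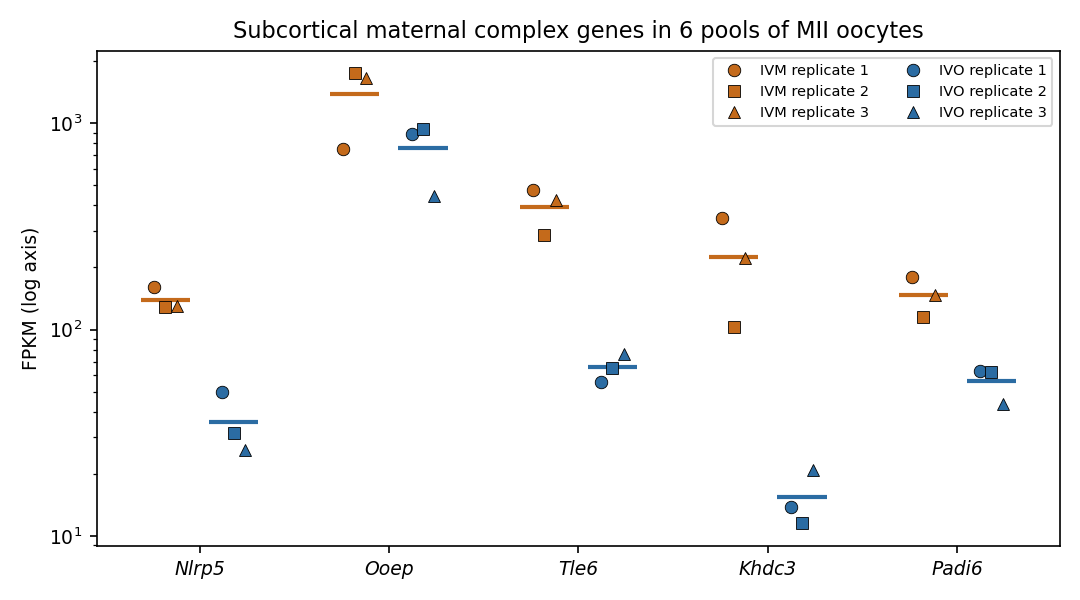
FPKM (log axis) of the 5 genes in each of the 6 pools, with orange symbols for IVM, blue symbols for IVO, 1 symbol shape per replicate number and a line at the group mean. The groups are apart for Nlrp5, Tle6, Khdc3 and Padi6, whereas for Ooep IVM replicate 1 (749 FPKM) lies under IVO replicates 1 and 2 (892 and 938 FPKM).

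Nlrp5 (ENSMUSG00000015721, chr7:23085314-23141347, plus strand, 16 exons, 1111 residues) encodes the leucine-rich repeat protein on which the complex is built. Its level was 160, 128 and 131 FPKM in the 3 IVM samples and 49.6, 31.4 and 26.0 FPKM in the 3 IVO samples. All IVO values lay under all IVM values, and the spread was wider in IVO, where the highest and lowest pool differed by 1.91-fold against 1.25-fold in IVM. The mean was 140 ± 17.9 FPKM (SD, n = 3) in IVM and 35.7 ± 12.4 FPKM (SD, n = 3) in IVO. The log2FC was -1.99 (SE 0.26, 95% interval -2.61 to -1.36, limma adjusted p = 0.00351). In rank among the 53700 Ensembl genes, Nlrp5 stood at 1545 to 1756 in IVM and at 2855 to 4078 in IVO. The related pseudogene Nlrp5-ps, which can share reads with Nlrp5, was at 15.8, 16.7 and 11.9 FPKM in IVM and at 0.12, 0 and 1.04 FPKM in IVO (log2FC -3.57, SE 0.33, adjusted p = 0.00125). Its level was thus low beside that of Nlrp5, and the sum of both was 143 to 176 FPKM in IVM and 27.1 to 49.7 FPKM in IVO.

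Ooep (ENSMUSG00000032346, chr9:78283366-78286030, minus strand, 3 exons) encodes a small protein with a KH-like domain, a fold known from RNA-binding proteins, that pairs with NLRP5 and TLE6. It was the most abundant of the 5 transcripts in every sample, at 749, 1749 and 1656 FPKM in IVM and 892, 938 and 444 FPKM in IVO. IVM replicate 1 and IVO replicate 3 were each the low sample of their group, and IVM replicate 1 lay under IVO replicates 1 and 2, so the groups overlapped. The mean was 1385 ± 552 FPKM (SD, n = 3) in IVM and 758 ± 273 FPKM (SD, n = 3) in IVO. The log2FC of -0.85 (SE 0.41, 95% interval -1.81 to 0.12) had a limma adjusted p of 0.184. The interval holds both 0 and a decrease as large as that of Padi6, so these pools do not tell whether Ooep changed. Each library held at least 15159 inferred fragments on Ooep, for which the counting error is at most 0.812% if PCR copies are left out of account. By rank among the Ensembl genes, Ooep stood at 434, 166 and 135 in IVM and at 246, 235 and 540 in IVO, with overlap again.

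Tle6 (ENSMUSG00000034758, chr10:81426738-81436907, minus strand, 14 exons, 581 residues) encodes a member of the Groucho-related family of co-repressors that acts in the oocyte as a subunit of the complex. Its level was 473, 288 and 424 FPKM in IVM and 55.4, 64.8 and 76.3 FPKM in IVO. The groups were apart by a wide margin, the lowest IVM sample being above the highest IVO sample. The mean was 395 ± 96.1 FPKM (SD, n = 3) in IVM and 65.5 ± 10.4 FPKM (SD, n = 3) in IVO, that is 16.6% of the IVM mean. The log2FC was -2.55 (SE 0.24, 95% interval -3.12 to -1.99, limma adjusted p = 0.00132). Its rank moved from 662 to 977 in IVM to 2081 to 2627 in IVO. The 3′ end of Tle6 overlaps Tle2 on the other strand over 313 of 2016 exonic bases, and the library kit does not mark strand, but Tle2 was listed at no more than 0.07 FPKM in any sample.

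Khdc3 (ENSMUSG00000092622, chr9:73009118-73011724, plus strand, 3 exons, 440 residues) encodes a KH-like domain protein that joins the complex through NLRP5 and is known for a role in euploidy of the early embryo. Its level was 347, 103 and 222 FPKM in IVM and 13.9, 11.5 and 20.8 FPKM in IVO. This was the greatest difference among the 5 genes, and also the greatest spread within IVM, where the pools differed by 3.36-fold. Even the lowest IVM pool, replicate 2, was above every IVO pool. The mean was 224 ± 122 FPKM (SD, n = 3) in IVM and 15.4 ± 4.84 FPKM (SD, n = 3) in IVO, or 6.87% of the IVM mean. The log2FC was -3.65 (SE 0.45, 95% interval -4.70 to -2.60, limma adjusted p = 0.00261), and the lowest value rests on 294 inferred fragments (counting error 5.83%). By rank Khdc3 stood at 869 to 2055 in IVM and at 4552 to 5935 in IVO.

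The level of Khdc3 is uncertain in 1 respect. The annotated gene Gm20509 (chr9:73009752-73029619, plus strand), which runs on into the ribosome biogenesis gene Rsl24d1, shares 790 of the 1681 exonic bases of Khdc3 (47.0%), so the counting can have split fragments between them. Gm20509 was at 298, 114 and 195 FPKM in IVM and 6.13, 9.50 and 15.1 FPKM in IVO (log2FC -4.15, adjusted p = 0.0017). It thus stood at a level close to that of Khdc3 and lay lower in IVO too. Summed, they were at 645, 217 and 418 FPKM in IVM and 20, 21 and 36 FPKM in IVO, and the log2FC of the sum was -3.92 (SE 0.42, adjusted p = 0.00188).

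Padi6 (ENSMUSG00000040935, chr4:140454666-140469954, minus strand, 16 exons, 682 residues) encodes the oocyte member of the peptidylarginine deiminase family. Its level was 181, 116 and 147 FPKM in IVM and 62.7, 62.0 and 43.7 FPKM in IVO. The groups did not overlap, although they lay closer together than those of the other 3 called genes. The mean was 148 ± 32.6 FPKM (SD, n = 3) in IVM and 56.1 ± 10.8 FPKM (SD, n = 3) in IVO, and the rank was 1423 to 1904 in IVM and 2394 to 3021 in IVO. The log2FC was -1.38 (SE 0.24, 95% interval -1.94 to -0.81, limma adjusted p = 0.00849). With quantile normalization the log2FC was -0.84 (adjusted p = 0.0426), under the fold threshold, so the call of Padi6 as a DEG depends on the scaling, while that of Nlrp5, Tle6 and Khdc3 did not in the alternatives tried.

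**Figure D2:**
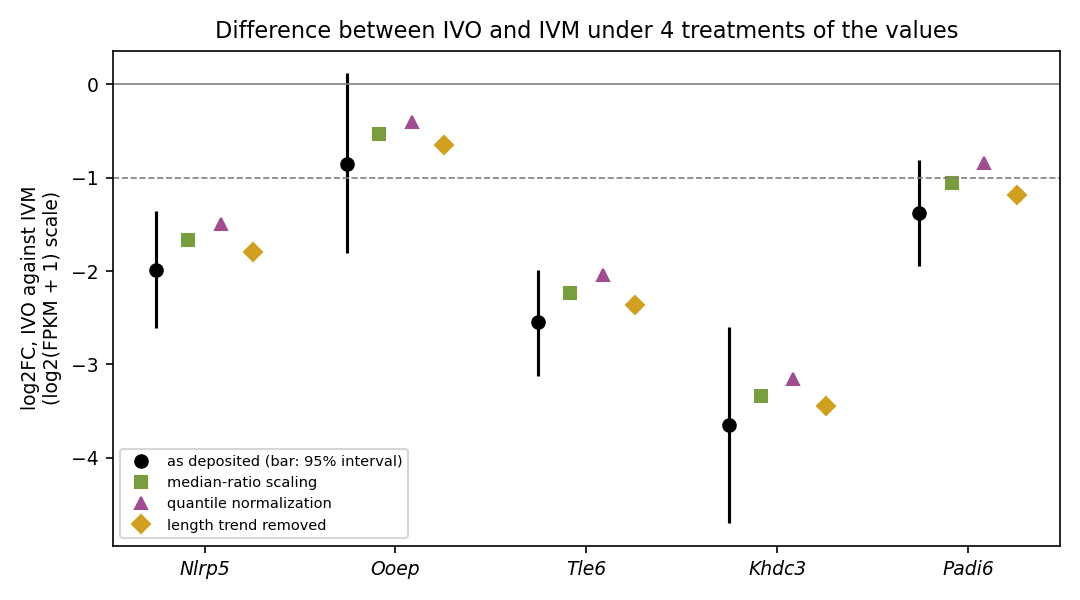
log2FC between IVO and IVM on the log2(FPKM + 1) scale for each gene, with the values as deposited (black, bar for the 95% interval), after median-ratio scaling, after quantile normalization and with the length trend of each library removed. The dashed line marks the fold threshold of -1: Khdc3, Tle6 and Nlrp5 stay under it in all 4, Padi6 crosses it with quantile normalization (-0.84), and Ooep stays above it.

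Because most genes were lower in IVO, the differences were also read after median-ratio scaling, which moved the median log2FC over all tested genes from -0.30 to -0.04. The log2FC was then -3.34 for Khdc3, -2.23 for Tle6, -1.67 for Nlrp5, -1.06 for Padi6 and -0.53 for Ooep. The order of the 5 genes was unchanged, and the same 4 were DEGs.

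The members differed in level as well as in response. In IVM the order by mean FPKM was Ooep, Tle6, Khdc3, Padi6 and Nlrp5, and only Ooep was apart from its neighbour in that order. Tle6 and Khdc3 overlapped across pools, as did Khdc3 and Padi6, and Padi6 and Nlrp5. Within each IVM pool, however, Tle6 lay above Khdc3 (log2 ratios of 0.45, 1.47 and 0.93). In IVO the order was Ooep, Tle6, Padi6, Nlrp5 and Khdc3. There Ooep again lay above all others and Khdc3 below all others. Across pools Tle6 overlapped with Padi6, and Padi6 with Nlrp5, although Nlrp5 lay under Padi6 within each IVO pool (log2 ratios of -0.33, -0.96 and -0.72). By group mean Khdc3 therefore stood in the third place in IVM and in the last in IVO. In IVM replicate 2 it was already the lowest, at 103 FPKM beside 116 for Padi6 and 128 for Nlrp5. Its place also rests on the split of fragments with Gm20509. Summed with that gene it was at 36 FPKM in IVO replicate 3, above Nlrp5 (26.0 FPKM).

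The proportions of the transcripts were described as shares of the summed FPKM of the 5 genes. The sum was 1910, 2383 and 2580 FPKM in IVM and 1074, 1107 and 611 FPKM in IVO. Ooep held 39.2%, 73.4% and 64.2% of it in IVM and 83.1%, 84.7% and 72.7% in IVO, so the mean share was 58.9% ± 17.7 (SD, n = 3) against 80.2% ± 6.51 (SD, n = 3). The lowest IVO share of Ooep (72.7%) lay under its highest IVM share (73.4%). Khdc3 held 18.1%, 4.33% and 8.61% in IVM and 1.29%, 1.04% and 3.41% in IVO, with no overlap. Tle6 held 24.8%, 12.1% and 16.4% in IVM and 5.16%, 5.85% and 12.5% in IVO, where IVO replicate 3 passed IVM replicate 2. The shares of Nlrp5 were 5.07% to 8.40% in IVM and 2.83% to 4.62% in IVO, and those of Padi6 were 4.85% to 9.46% and 5.60% to 7.15%. Nlrp5 was apart between the groups and Padi6 was not. Without Ooep, the sum of the other 4 was 1161, 635 and 924 FPKM in IVM and 182, 170 and 167 FPKM in IVO.

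**Figure D3:**
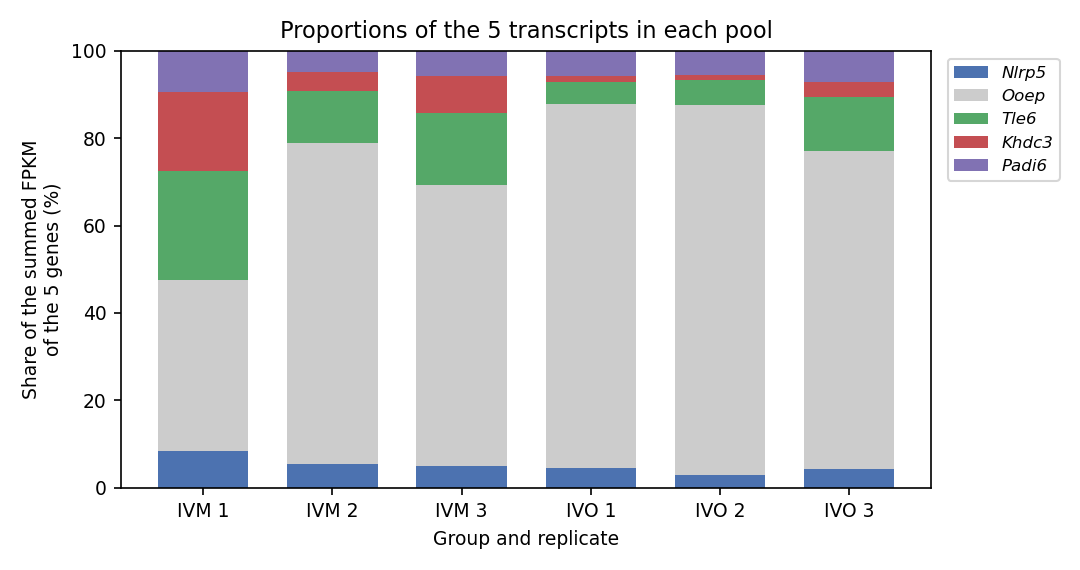
Share (%) of each gene in the summed FPKM of the 5 genes in every pool, as stacked bars. Ooep takes 39.2% to 73.4% in IVM and 72.7% to 84.7% in IVO, and the band of Khdc3 shrinks from 4.33% to 18.1% in IVM to 1.04% to 3.41% in IVO.

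Ratios between 2 members within a library do not depend on how that library was scaled, apart from the 1 added to each FPKM here. Of the 10 pairs, 6 had log2 ratios that did not overlap between the groups, each with an exact two-sided permutation p of 0.1, which is the smallest that 3 against 3 samples can give (adjusted p = 0.167 over the 10 pairs). None of the pairs could therefore pass a threshold of 0.05. The log2 ratio of Khdc3 to Padi6 was 0.94, -0.16 and 0.59 in IVM and -2.10, -2.33 and -1.03 in IVO, a difference of -2.28. With fragments split as deposited, Khdc3 thus stood near the level of Padi6 in IVM and below it in IVO. Summed with Gm20509 it was at 645, 217 and 418 FPKM in IVM, above Padi6 (181, 116 and 147 FPKM). In IVO the sum was 20, 21 and 36 FPKM, beside 62.7, 62.0 and 43.7 FPKM for Padi6. All ratios with Khdc3 rest on that split. The log2 ratio of Tle6 to Padi6 was 1.38, 1.31 and 1.52 in IVM and -0.17, 0.06 and 0.79 in IVO, a difference of -1.18. It was held within a narrow range in IVM, with Tle6 above Padi6 in each pool, whereas in IVO the ratio lay close to 0 in replicates 1 and 2.

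Against Ooep, the log2 ratio of Ooep to Khdc3 was 1.11, 4.07 and 2.89 in IVM and 5.91, 6.23 and 4.35 in IVO, which differed by 2.81. The other pairs that were apart were Nlrp5 to Ooep (difference -1.14), Tle6 to Khdc3 (1.10) and Nlrp5 to Padi6 (-0.61). Ooep to Tle6 (1.71), Nlrp5 to Khdc3 (1.67) and Nlrp5 to Tle6 (0.57) overlapped, each with an exact permutation p of 0.2. For Nlrp5 to Khdc3 this depended on the added 1. Without it the difference was 1.72 with an exact permutation p of 0.1. Ooep to Padi6 overlapped with a difference of 0.53 (exact permutation p = 0.7). IVM replicate 1, the pool with the least Ooep, had much weight in the ratios with Ooep. Without it the difference was -0.64 for Nlrp5 to Ooep, 1.17 for Ooep to Tle6, 2.01 for Ooep to Khdc3 and -0.02 for Ooep to Padi6.

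**Figure D4:**
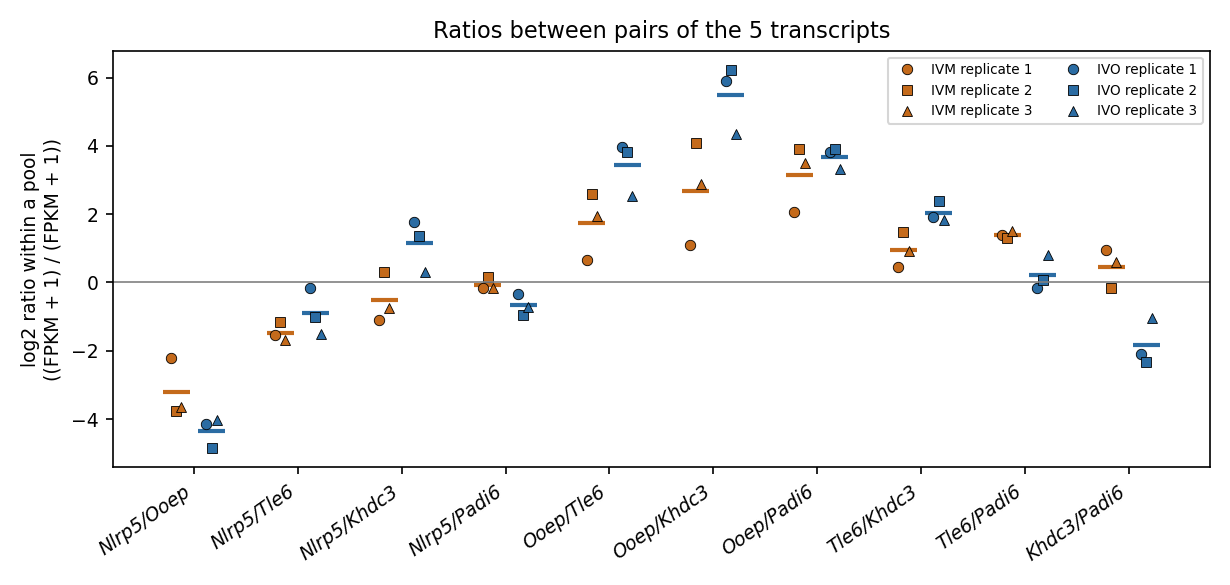
log2 ratio of (FPKM + 1) within each pool for the 10 pairs of members, with orange symbols for IVM, blue for IVO and a line at the group mean. The groups are apart in 6 pairs, among them Khdc3 to Padi6 (mean 0.46 in IVM and -1.82 in IVO), and IVM replicate 1 is the lowest IVM point of the ratios of Ooep to Tle6, Khdc3 and Padi6.

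Among 8 genes whose proteins bind the complex, share the cytoplasmic lattices with it or act with it, 2 were DEGs lower in IVO. The share over all tested genes was 17.9%. None of the 8 was a DEG higher in IVO, and their median log2FC was -0.25 (0.06 after median-ratio scaling), against -0.30 over all tested genes. Cfl1 (cofilin, which severs actin filaments) was at 325, 144 and 165 FPKM in IVM and 23.9, 18.4 and 26.9 FPKM in IVO (log2FC -3.06, SE 0.33, adjusted p = 0.00192). Cdc25b, the phosphatase that activates CDK1 at meiotic resumption, was at 10.5, 6.42 and 9.42 FPKM in IVM and 1.35, 1.10 and 1.35 FPKM in IVO (log2FC -2.09, SE 0.25, adjusted p = 0.0023). Both were thus lower in every IVO than in every IVM pool. This held for 4 of the 8 partners, the others being Nlrp14 and Nlrp2, and for 32.6% of all tested genes.

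The other 6 partners were not DEGs. Nlrp14, a lattice protein of the same family as Nlrp5, was at 970, 557 and 669 FPKM in IVM and 364, 373 and 379 FPKM in IVO, and its log2FC of -0.94 (adjusted p = 0.0228) lay just short of the fold threshold. Ube2d3, a ubiquitin-conjugating enzyme, was at 1630, 1391 and 1424 FPKM in IVM and 2276, 2276 and 2402 FPKM in IVO (log2FC 0.65, adjusted p = 0.0132). It was the one partner with every IVO value above every IVM value, which held for 1811 of the 18818 tested genes. Zbed3, the zinc finger protein of the complex, was the most abundant partner, at 4666, 2276 and 5599 FPKM in IVM and 5184, 5537 and 4534 FPKM in IVO (log2FC 0.38, 95% interval -0.38 to 1.13, adjusted p = 0.443). Nlrp4f was at 411, 754 and 816 FPKM in IVM and 786, 863 and 562 FPKM in IVO (log2FC 0.20, adjusted p = 0.68). Like Ooep, it was lowest in replicate 1 of IVM and in replicate 3 of IVO. Nlrp2 (log2FC -0.38, adjusted p = 0.177) and Uhrf1 (-0.12, adjusted p = 0.791) had intervals that include 0, and Uhrf1 was at 0.19 after median-ratio scaling. The values of Nlrp2 did not overlap, at 30.1 to 37.1 FPKM in IVM and 24.2 to 27.5 FPKM in IVO.

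The KH-domain relatives of Ooep and Khdc3 differed among themselves. Dppa5a, a KH-domain gene known from germ cells and pluripotent cells, lies 5158 bases from Ooep on the same strand. It was at 743, 658 and 450 FPKM in IVM and 60.4, 44.3 and 51.9 FPKM in IVO (log2FC -3.52, SE 0.24, adjusted p = 6.53e-04). Its log2FC was thus close to that of Khdc3, while its neighbour Ooep did not pass the test. Khdc1a, Khdc1b and Khdc1c had log2FC values of -0.19, -0.10 and -0.05 (adjusted p of 0.532, 0.671 and 0.875), which turned to 0.12, 0.22 and 0.26 with median-ratio scaling. Khdc1b, the most abundant of these, was at 520 to 613 FPKM in IVM and 484 to 565 FPKM in IVO. Of the 4 KH relatives 1 was a DEG lower in IVO (17.9% over all tested genes), and the median log2FC was -0.14.

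In the other families to which members belong, transcripts were mostly not called. Of the other 4 Padi genes only Padi2 entered the test, at 3.30, 2.27 and 2.92 FPKM in IVM and 0.87, 0.19 and 4.10 FPKM in IVO (log2FC -0.76, adjusted p = 0.335). Padi1, Padi3 and Padi4 were at no more than 0.12 FPKM in any sample, so Padi6 was the main transcript of its family in these oocytes. Of the other 5 Tle genes, 3 were tested and 1 was a DEG lower in IVO (17.9% over all tested genes). Tle1 was at 273, 235 and 195 FPKM in IVM and 83.1, 128 and 119 FPKM in IVO (log2FC -1.09, SE 0.23, adjusted p = 0.0156), but at -0.77 and no longer a DEG after median-ratio scaling. Tle5 (log2FC -1.12, adjusted p = 0.129) and Tle4 (-0.14, adjusted p = 0.752) were not called, and Tle2 and Tle3 were near or at 0 FPKM.

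Of the 18 other Nlrp genes, 3 of which are also among the partners, 12 were tested and 1 was a DEG lower in IVO (17.9% over all tested genes). The median log2FC of the 12 was 0.16 (0.45 after median-ratio scaling). Nlrp12 and Nlrp14 had the most negative log2FC. Nlrp12 was at 863, 784 and 845 FPKM in IVM and 455, 297 and 434 FPKM in IVO (log2FC -1.09, adjusted p = 0.00942, and -0.77 and not a DEG after median-ratio scaling). At the other end stood Nlrp4g (log2FC 0.81, adjusted p = 0.0429) and Nlrp4a (0.66, adjusted p = 0.0344). Nlrp4g was a DEG higher in IVO after median-ratio scaling (1.11). The log2FC of Nlrp5 (-1.99) lay below those of these 12 genes and above that of its pseudogene Nlrp5-ps (-3.57).

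Among 20 other genes of the oocyte, 19 were tested, 4 were DEGs lower and 1 was a DEG higher in IVO (17.9% and 0.606% over all tested genes). The median log2FC of the 19 was -0.39 (-0.07 after median-ratio scaling). The most negative were Zp2 and Zp3, which encode proteins of the zona pellucida. Zp2 was at 874, 398 and 414 FPKM in IVM and 43.6, 42.4 and 33.6 FPKM in IVO (log2FC -3.69, adjusted p = 0.00119), and Zp3 had a log2FC of -3.13 (adjusted p = 0.00202). The difference of Zp2 was close to that of Khdc3. The most positive were Oog1, at 579, 618 and 614 FPKM in IVM and 2492, 1874 and 1057 FPKM in IVO (log2FC 1.5, adjusted p = 0.0131), and Dazl, an RNA-binding regulator of translation (0.74, adjusted p = 0.022, and 1.06 and a DEG after median-ratio scaling).

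**Figure D5:**
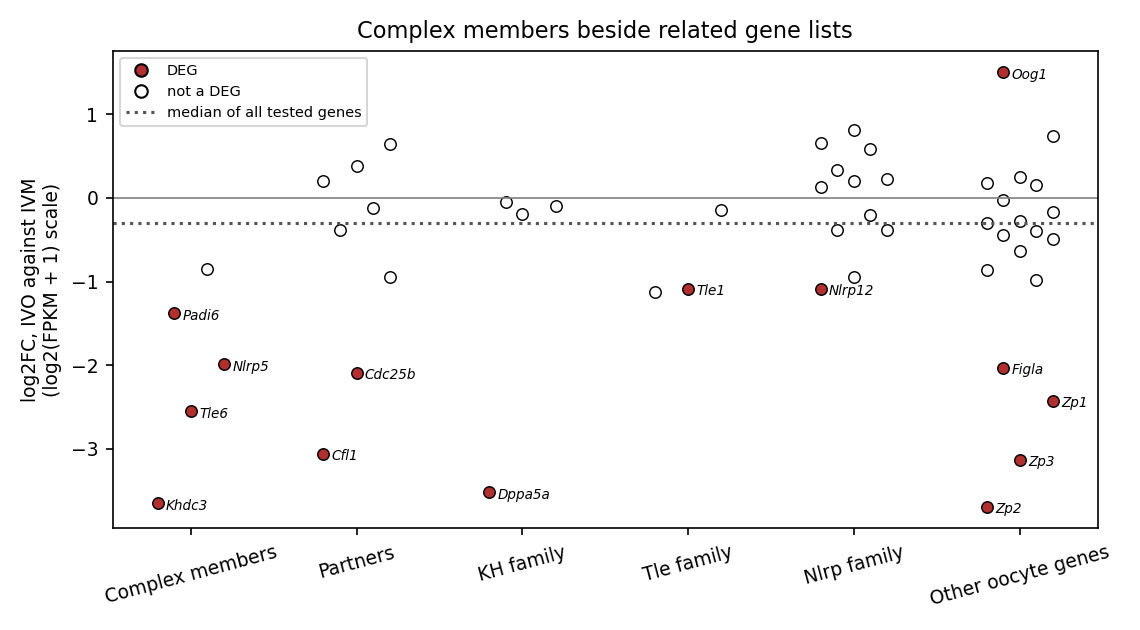
log2FC between IVO and IVM on the log2(FPKM + 1) scale for each tested gene of the complex and of 5 related lists, with filled red points for DEGs and open points for the rest, and a dotted line at the median of all tested genes (-0.30). Over all tested genes 17.9% are DEGs lower in IVO. In the lists these are 4 of the 5 members, 2 of 8 partners, 1 of 4 KH relatives, 1 of 3 Tle genes, 1 of 12 Nlrp genes and 4 of 19 other oocyte genes.

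The genes with the most similar profile were sought by the root mean square difference over the 6 samples, on the log2(FPKM + 1) scale and relative to each gene's IVM mean, among 13153 Ensembl genes. For Nlrp5 these were Nos1 (0.08) and Defa39 (0.13). For Tle6 they were 0610010K14Rik (0.11) and Fmnl3 (0.16). For Ooep they were 2610044O15Rik8 (0.07) and the long noncoding RNA Gm29538 (0.10). The former was at 3.30, 9.98 and 9.49 FPKM in IVM and 4.90, 4.87 and 1.58 FPKM in IVO. Gm29538 was low, at 0.71 to 2.91 FPKM in IVM and 0 to 1.32 FPKM in IVO. Both were picked by likeness over these same 6 samples. That they share the low IVM replicate 1 and IVO replicate 3 of Ooep thus follows from the choice. For Khdc3, the nearest genes Gm4632 and Bc1 were at a distance of 0.27 and 0.38, so its profile was less closely matched than those of Nlrp5, Tle6 and Ooep. No member was among the 2 nearest genes of another member.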

How the data were processed

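RNA of 6 pools of MII oocytes, 3 IVM and 3 IVO, was measured by RNA-seq after full-length cDNA synthesis with the SMART-Seq v4 kit, which primes on the poly(A) tail, and Nextera XT libraries. Groups and replicate numbers were taken from the sample labels, and the replicates were given as biological. The authors aligned the reads to GRCm39 with HISAT2 2.1.0, estimated abundance with RSEM 1.3.3 and deposited FPKM per gene and sample, together with group means and gene lengths. Their own tests used DESeq2 1.24.0 on counts not analysed here. The deposited group means and annotation columns were not used.

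FPKM entered as deposited, as log2(FPKM + 1), for 18818 genes with a mean of at least 1 FPKM. The differences were tested with limma 3.58.1 in R 4.3.3 (lmFit, eBayes with trend, group alone, two-sided), with Benjamini-Hochberg adjustment over all tested genes. On this scale the log2FC of genes with low FPKM is understated. In simulated data 200 of 18818 genes were changed, and limma called 151 of them and 8 others. The changes were set well above the fold threshold and went up and down equally often, with independent noise. In the real data far more genes were called and most were lower in IVO, so these counts are not error rates for the results above. Ratios were tested by exact permutation with scipy 1.17.1 in Python 3.11.15. Depth was inferred from the steps of low FPKM values, of which 72.2% to 76.3% per library came out whole within 0.1 fragments. At 1000 bases 3 fragments are worth 0.195 to 0.234 FPKM, which reflects counting error alone, since PCR copies of 1 molecule are counted repeatedly. The 3′ ends were read from the canonical transcripts of the GENCODE annotation on GRCm39.

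The members and lists were chosen with earlier results of these data known. The text names the members, every tested gene of the partner, KH, Padi, Tle and pseudogene lists, the 2 most negative and 2 most positive genes of the Nlrp and oocyte lists, the 2 nearest profiles (those of Padi6 are not reported here) and overlapping genes. The partners Zbed3 and Nlrp4f were picked for their 3′ ends after these had been searched. The alternatives were other pseudocounts, filters and scalings, Ensembl genes only, no eBayes trend, a replicate block, removal of the length trend (lowess, span 0.3), values not divided by length, and leaving out each sample.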

Additional observations from a re-analysis of the deposited data

How the results depend on the processing

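Under 19 alternatives, Khdc3, Tle6 and Nlrp5 were DEGs in each, with log2FC of -4.13 to -3.16, -2.77 to -2.04 and -2.24 to -1.49, and Ooep was a DEG in none (-1.24 to -0.40, adjusted p 0.0756 to 0.52). Padi6 lost its call with quantile normalization (-0.84) and with the length trend removed together with the replicate block (-1.18, adjusted p = 0.0533), and the cause was not tested. Leaving out each sample in turn gave -4.13 to -3.26 for Khdc3, -2.77 to -2.41 for Tle6, -2.24 to -1.79 for Nlrp5, -1.54 to -1.21 for Padi6 and -1.24 to -0.50 for Ooep. The ratio of Ooep to Padi6 then differed by -0.02 to 0.91, turning to -0.02 without IVM replicate 1.

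The number of DEGs over all tested genes was 3480. It was 2273 with a pseudocount of 5, 2056 with Ensembl genes only, 2068 with the length trend removed, 929 with that and the replicate block, and 2363 to 3304 on leaving out each sample. The split was 3366 lower and 114 higher as deposited, 2130 and 385 with median-ratio scaling, 2131 and 397 with equal sums, 1580 and 1097 with quantile normalization, and 1511 and 557 with the length trend removed. The single DEG of the Tle list and that of the Nlrp list fell to 0 with median-ratio scaling and to 0 with the length trend removed.

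Samples of the same replicate number did not deviate together (correlations of -0.062, -0.018 and -0.107). The labels do not say whether pools of the same number were handled together, and this check cannot show it. With the replicate block 2991 genes were DEGs, and the same 4 members were called. The sums of Khdc3 with Gm20509 and of Nlrp5 with its pseudogene were chosen after seeing the data and changed no call.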

Other observations

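The search of 3′ ends was extended to protein-coding genes with a 3′ UTR of at least 50 bases after the data had been seen. Other tested genes are not included, and the values are given as a description. Among 2508 tested genes with TTTTAT or TTTTAAT in the last 150 bases of the 3′ UTR, the median log2FC was -0.02 and 9.45% were DEGs lower in IVO. Among 7534 tested genes without either, the median was -0.21 and 15.6% were DEGs lower in IVO. After median-ratio scaling the medians were 0.25 and 0.06. The 5 members belong to the genes without either element.

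Of the members, Nlrp5, Tle6, Khdc3 and Padi6 have a 3′ UTR in the shortest quartile of these genes (up to 520 bases), and Ooep lies in the third quartile (1310 to 2624 bases). In the shortest quartile, the median log2FC was -0.43 with 23.6% DEGs lower in IVO for 1938 genes without the element, and -0.04 with 9.93% for 574 genes with it. In the third quartile the medians were -0.12 and -0.03, with 12.9% and 11.1% DEGs lower in IVO. In the shortest quartile the median gene length was 1486 bases without the element and 1791 bases with it. With the length trend of each library removed, the medians there were -0.17 without the element and 0.20 with it. Over all 7534 genes without it and 2508 with it they were 0.01 and 0.19.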
